A study of Mus musculus with 6 samples.

Results

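The genes described here are 37 genes of glycolysis and of the cellular response to low oxygen, followed in sorted lung endothelial cells (ECs) on 6 mouse expression arrays. They were listed by name and function, 24 for glycolysis (glucose transporters, glycolytic enzymes, regulatory kinases, and enzymes and carriers of lactate) and 13 for the hypoxia-inducible factor (HIF) pathway and its targets. Of the 37, 33 were measured out of 18193 genes on the array, 21 of glycolysis and 12 of the HIF group. Each was represented by the brightest probe set annotated to that symbol alone, and 73 such probe sets covered the 33 genes. Gpi1 and Eno1 were not found by symbol in the platform annotation used, Bnip3l was annotated only together with a pseudogene, and Gapdh was annotated by itself only in the manufacturer's control probe sets. These 4 genes were not tested.

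Both groups were NSG mice, which lack lymphocytes, 6 to 8 weeks old, with lung metastases grown from human MDA-MB-231-LM2 breast cancer cells given through the tail vein. On days 14, 16 and 18 after tumor cell injection one group received liposomes loaded with clodronate, which kills phagocytes that take them up, and the other received liposomes loaded with PBS. The series' design text gives 100 µl per mouse, and the study's methods give a different volume. Lungs were taken on day 20, and CD31+ cells were sorted after exclusion of cells with hematopoietic, myeloid, epithelial, fibroblast or tumor cell markers (CD45, CD11b, EpCAM, CD140a, CD140b and GFP). Each group held 3 arrays, labelled biological replicates 1 to 3. The labels do not say how many mice each replicate holds, so the p values measure the spread between these arrays. No lung without metastases belonged to the comparison, and clodronate-liposomes act on any phagocyte of the mouse.

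Glycolysis splits glucose into pyruvate in the cytosol, and ECs are known to draw most of their ATP from it even where oxygen is plentiful. When oxygen is sufficient, prolyl hydroxylases of the Egln family mark HIF alpha subunits for capture by Vhl and degradation. When oxygen is scarce, Hif1a or Epas1 (HIF-2 alpha) persists, pairs with Arnt, and binds hypoxia response elements in genes for glucose uptake, glycolytic enzymes, lactate export and the oxygen response itself, including Egln3.

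All values below are log2 signals after robust multiarray averaging (RMA), and differences are clodronate-liposome minus PBS-liposome. The labelled cell type was checked first. All 15 of 15 pan-endothelial markers lay above the median signal of the array (8.12), their mean log2 signal was 13.08 to 13.14 on the PBS arrays and 13.04 to 13.23 on the clodronate arrays, and Pecam1 (CD31) read 13.50 to 13.58 and 13.53 to 13.70. By list mean, signal of other cells was present at a lower level, though single genes were bright. The mean of 12 fibroblast and mural markers was 9.77 to 9.86 on PBS and 9.57 to 9.79 on clodronate arrays. Among them Col3a1 read 12.37 to 12.67 and 12.26 to 12.79. The mean of 13 epithelial markers was 8.07 to 8.34 and 7.95 to 8.24. Among these Sftpc read 10.14 to 11.38 and 8.49 to 12.78. Of 21 macrophage markers, 9 were below the median signal, and the mean of the list was 8.41 to 8.75 on PBS and 8.25 to 8.43 on clodronate arrays. The mean of 12 pan-leukocyte markers was 8.16 to 8.47 and 7.97 to 8.08, with 5 of them below the median signal. None of these leukocyte and macrophage markers passed the adjusted threshold, and at unadjusted p under 0.05 6 of 21 macrophage markers (among them Csf1r and Cybb) and 5 of 12 pan-leukocyte markers were lower, and 1 macrophage marker, Siglecf, was higher. At the same limit 2 of 8 platelet, 1 of 4 measured erythroid, 1 of 13 epithelial and 1 of 12 fibroblast and mural markers were lower, and 0 of 8 measured neutrophil markers reached it. Of the endothelial lists, 1 of 15 pan-endothelial markers was lower (Flt1), and of 11 lung capillary markers 1 was lower (Ednrb) and 1 higher (Apln). Over all genes, 5.49% were lower and 4.54% higher at this limit. Probe sets for the hybridization controls, which are added to the labelled sample, read 11.91 and 11.94 on clodronate replicates 1 and 3 and 12.11 to 12.24 on the other 4 arrays, and probe sets for 18S rRNA read 13.01 and 13.00 against 12.33 to 12.63. In sorted cells analysed in bulk, fewer cells of a type and less RNA per cell cannot be told apart.

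After clodronate-liposome treatment no member passed the threshold of adjusted p under 0.05. The members with the lowest unadjusted p were all lower after treatment and included known HIF targets and control points of glycolysis. Slc2a1 (GLUT1, the main glucose transporter of ECs) read 54.7% of its PBS level, Pfkfb3 64.9%, Ankrd37 56.3% and Ldha 74.0%, while Hif1a (95.5%), Epas1 (104%) and most steps of the enzymatic chain had 95% confidence intervals that included no difference. By limma with Benjamini-Hochberg adjustment over 45037 probe sets, 0 of 33 members were called in either direction, where 0.434% of all genes were (79 of 18193). At unadjusted p under 0.05, 10 members were lower (30.3% of 33), where 5.49% of all genes were, and 0 were higher, where 4.54% of all genes were. The groups did not overlap, with clodronate lower, for 10 members (30.3%), where this held for 8.75% of all genes, and with clodronate higher for 0 members, where it held for 7.49% of all genes. The 2 sets of 10 shared 8 genes, the exceptions being Aldoc and Bnip3 on one side and Hk1 and Pdk1 on the other. The median log2 difference was -0.12 for the 21 glycolysis members (range -1.01 to 0.24) and -0.12 for the 12 HIF members (range -0.83 to 0.20), against 0.00 over all genes. The HIF median rested on single arrays, being -0.296 without PBS replicate 1, -0.0291 without PBS replicate 3, -0.0442 without clodronate replicate 1 and -0.177 without clodronate replicate 2. These counts describe the list, which was drawn up with results of these data known.

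**Figure D1:**
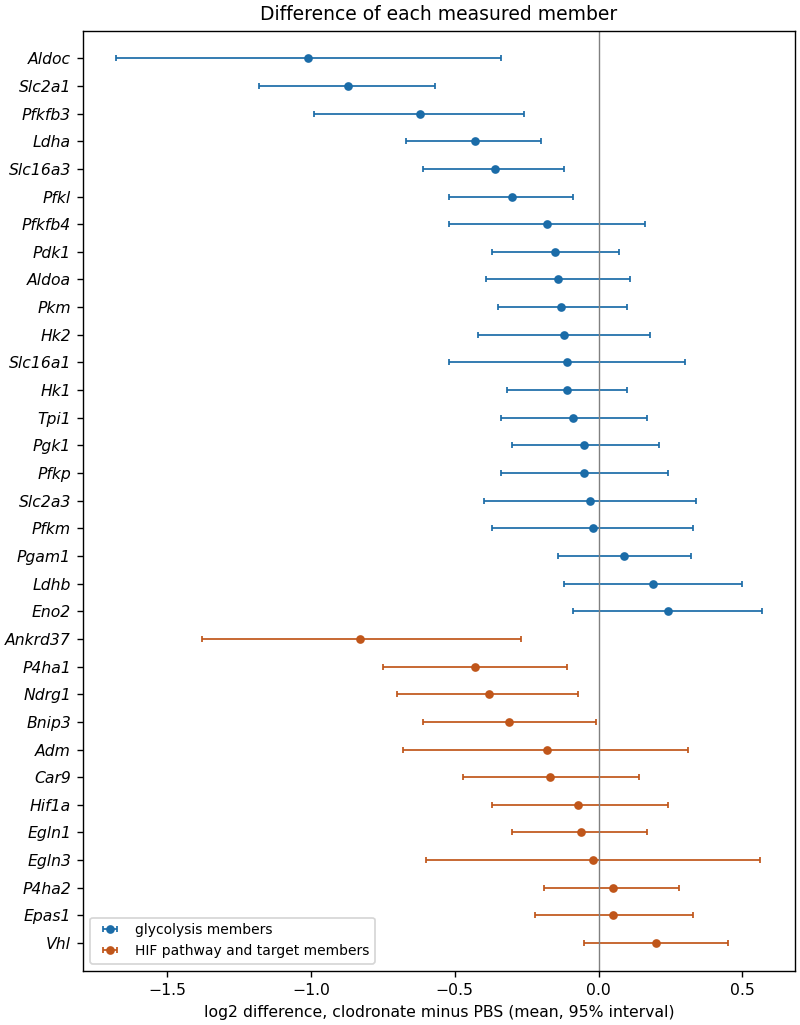
Log2 difference (clodronate minus PBS, x axis) of each of the 33 measured members with its 95% confidence interval from limma (3 arrays per group), glycolysis in blue and the HIF pathway and targets in orange, each sorted by size. Intervals of 10 members lie wholly below 0, led by Aldoc and Slc2a1 at the top of glycolysis and Ankrd37 at the top of the HIF group, and none lies wholly above 0.

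Of the glucose transporters, Slc2a1 came closest to the threshold. It read 10.69, 10.93 and 10.96 on the PBS arrays and 9.90, 10.21 and 9.87 on the clodronate arrays. Every clodronate array lay below every PBS array. The difference was -0.87 (SE 0.131, 95% confidence interval -1.18 to -0.57), 1.83-fold lower, with a limma unadjusted p of 0.000172 and an adjusted p of 0.0528. Its other probe sets read -0.76 (adjusted p = 0.0567) and -0.65 (adjusted p = 0.139), with no overlap between groups in either. Across all alternatives run, the limma adjusted p ranged from 0.023 to 0.204, and it passed the threshold under 5 of them, which the closing section names. By unadjusted p Slc2a1 was in position 85 of 18193 genes.

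Slc2a3 (GLUT3, a high-affinity transporter typical of neurons and leukocytes) was not separated by group. Its brightest probe set differed by -0.03 (SE 0.16), and its other 3 probe sets by 0.11, 0.44 and 0.19, so that its sign depended on the probe set. None of these reached an unadjusted p of 0.05.

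Hexokinases trap glucose in the cell by phosphorylation. Hk2, the inducible form, read 7.59, 7.65 and 7.66 on PBS and 7.77, 7.33 and 7.44 on clodronate arrays, with the groups overlapping and the signal below the array median. Its difference was -0.12 (SE 0.128). Hk1, the widely expressed form, differed by -0.11 (SE 0.0914, adjusted p = 0.741) although its groups did not overlap.

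Phosphofructokinase, the committed step, has 3 isoforms, and the liver-type Pfkl was the one with an unadjusted p under 0.05. Pfkl read 11.55, 11.58 and 11.56 on PBS arrays and 11.16, 11.28 and 11.34 on clodronate arrays. The groups were apart, and the difference of -0.30 (SE 0.0945) had a limma unadjusted p of 0.0125 and an adjusted p of 0.281. The other probe sets of Pfkl gave -0.14 and 0.12, the latter opposite in sign. Pfkm and Pfkp differed by -0.02 (SE 0.151) and -0.05 (SE 0.125), and further probe sets of Pfkp gave -0.12 and 0.16.

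Pfkfb3 makes fructose-2,6-bisphosphate, the strongest activator of phosphofructokinase, and is known as a driver of glycolysis in sprouting ECs. It read 10.68, 10.62 and 10.61 on PBS arrays and 9.65, 10.25 and 10.14 on clodronate arrays. All 3 clodronate arrays were lower, replicate 1 by the most. The difference was -0.62 (SE 0.157, interval -0.99 to -0.26), 1.54-fold lower (limma unadjusted p = 0.0042, adjusted p = 0.188), and its other probe set gave -0.51. Pfkfb4, a second enzyme of this kind, differed by -0.18 (SE 0.148). Pdk1, a kinase that inactivates pyruvate dehydrogenase, differed by -0.15 (SE 0.0966, adjusted p = 0.653) with groups that did not overlap, and 1 of its other probe sets gave 0.06.

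Among the aldolases the dim Aldoc, the brain-type isoform and a known HIF target, had the largest log2 difference of any member. Aldoc read 7.48, 8.48 and 8.23 on PBS arrays and 6.63, 7.49 and 7.02 on clodronate arrays. Clodronate replicate 2 was at the level of PBS replicate 1, so the groups touched, and both spreads were wide (SD 0.517 and 0.431). The difference was -1.01 (SE 0.29, interval -1.68 to -0.34; limma unadjusted p = 0.00823, adjusted p = 0.24). Its second probe set gave -0.35 (SE 0.319). Aldoa, the abundant isoform, differed by -0.14 (SE 0.108), with other probe sets from -0.20 to 0.10.

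The remaining steps of the chain had confidence intervals that included 0. Tpi1, which interconverts the triose phosphates, differed by -0.09 (SE 0.11), with another probe set at -0.21. Pgk1, the first step that yields ATP, differed by -0.05 (SE 0.109), with 2 other probe sets at 0.05. Pgam1, the mutase that follows, differed by 0.09 (SE 0.0984), the neuron-type enolase Eno2 by 0.24 (SE 0.143) at a low signal, and Pkm, pyruvate kinase, by -0.13 (SE 0.0972). Gapdh, read here only through the manufacturer's control probe set at its 3′ end, gave 12.85, 12.78 and 12.90 on PBS and 12.99, 12.68 and 12.94 on clodronate arrays. These Gapdh values overlapped. Probe sets with an x in their name can also bind related transcripts. Some of those of Aldoa, Pgk1, Tpi1, Ldhb, Slc2a3, Ndrg1 and Adm are of this kind, and for Aldoa and Adm the brightest is.

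At the exit of the pathway, Ldha, the lactate dehydrogenase subunit that favors lactate formation, was lower in every clodronate array. It read 12.67, 12.79 and 12.77 on PBS arrays and 12.20, 12.31 and 12.42 on clodronate arrays. The groups did not overlap. The difference was -0.43 (SE 0.101, interval -0.67 to -0.20; limma unadjusted p = 0.00276, adjusted p = 0.165), 1.35-fold lower. Ldha was 1 of 2 members that passed the threshold in the fit with a trended and robust variance. Its partner Ldhb, the subunit that favors the reverse reaction, differed by 0.19 (SE 0.134), and its other 3 probe sets gave 0.23, 0.24 and 0.17.

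Of the lactate carriers, Slc16a3 (MCT4, the exporter of highly glycolytic cells) read 8.92, 8.95 and 8.93 on PBS arrays and 8.41, 8.59 and 8.71 on clodronate arrays. No clodronate array reached the PBS arrays, and the difference was -0.36 (SE 0.106; limma unadjusted p = 0.00908, adjusted p = 0.249). Slc16a1 (MCT1), which carries lactate either way, differed by -0.11 (SE 0.177) below the median signal of the array, and its other probe set by 0.05.

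**Figure D2:**
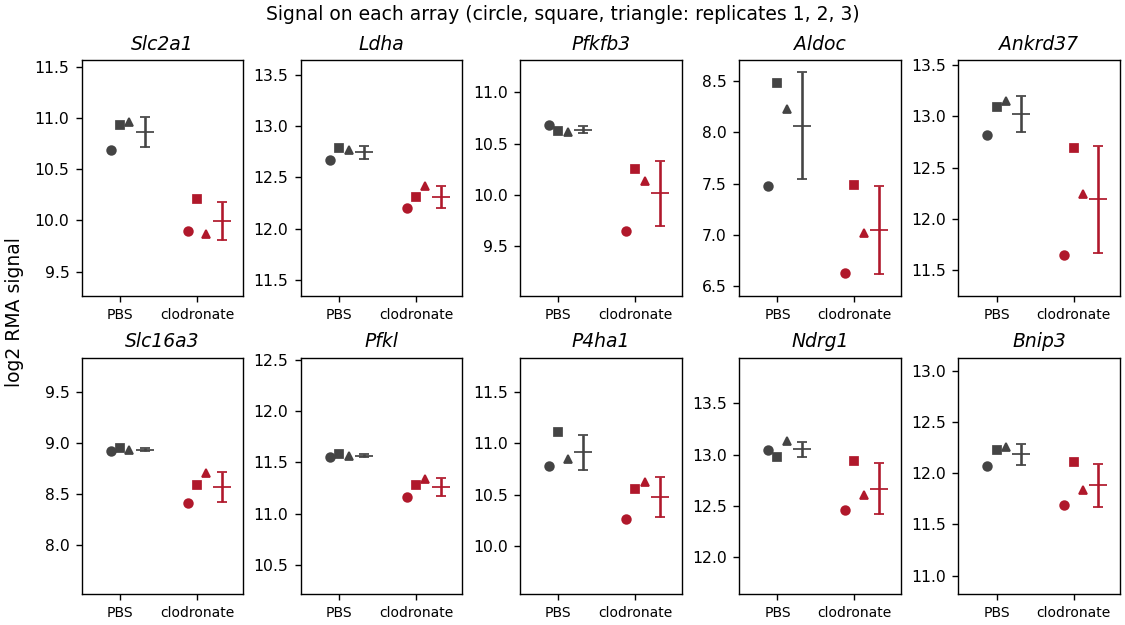
Log2 RMA signal (y axis, each panel spanning the same range) on each array for the 10 members with an unadjusted limma p under 0.05, ordered by p, with circles, squares and triangles for replicates 1, 2 and 3 and the mean ± SD (n = 3) at the right of each group. Clodronate arrays lie wholly below PBS arrays in 8 panels and touch or overlap them for Aldoc and Bnip3, and the circle of clodronate replicate 1 is the lowest point in 9 panels.

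None of the HIF subunits and oxygen sensors had an unadjusted p under 0.05 in its brightest probe set. Hif1a read 12.74, 12.91 and 12.98 on PBS arrays and 12.58, 13.00 and 12.87 on clodronate arrays. The groups overlapped, and the difference was -0.07 (SE 0.133, interval -0.37 to 0.24). Other probe sets of Hif1a gave -0.26, -0.09 and -0.02, none with an unadjusted p under 0.05.

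Epas1, the alpha subunit most characteristic of ECs, read 14.13, 13.96 and 14.13 on PBS arrays and 14.20, 13.92 and 14.25 on clodronate arrays. The clodronate values lay on both sides of the PBS values, with a difference of 0.05 (SE 0.119, interval -0.22 to 0.33). Egln3, the hydroxylase that HIF itself induces, read 7.24, 8.11 and 8.03 on PBS and 7.61, 8.13 and 7.58 on clodronate arrays. Its groups overlapped fully, and the interval of its difference was wide (-0.02, SE 0.25, -0.60 to 0.56), so a change of the size seen for Pfkl could not be detected. Its second probe set gave -0.14 (SE 0.202). Egln1, the main oxygen sensor, differed by -0.06 (SE 0.103), and its second probe set by -0.23 (limma unadjusted p = 0.0314, adjusted p = 0.396). Vhl, the ubiquitin ligase subunit that removes HIF, differed by 0.20 (SE 0.107) in one probe set and by -0.26 (SE 0.108) in the other, where the groups did not overlap (limma unadjusted p = 0.0407, adjusted p = 0.432).

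Of the 7 measured HIF targets outside glycolysis, 4 had an unadjusted p under 0.05 and all 4 were lower, where 5.49% of all genes were lower at that limit. Ankrd37, a small ankyrin-repeat protein known as a direct HIF-1 target, read 12.82, 13.09 and 13.15 on PBS arrays and 11.65, 12.69 and 12.24 on clodronate arrays. The groups were apart, but the clodronate arrays spanned more than 1 log2 unit (SD 0.518 against 0.175). The difference was -0.83 (SE 0.24, interval -1.38 to -0.27; limma unadjusted p = 0.00895, adjusted p = 0.248), 1.77-fold lower.

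P4ha1, a subunit of the enzyme that hydroxylates collagen prolines, read 10.78, 11.11 and 10.85 on PBS arrays and 10.26, 10.56 and 10.62 on clodronate arrays. Its groups did not overlap. The difference was -0.43 (SE 0.137; limma unadjusted p = 0.0138, adjusted p = 0.292), and a second probe set gave -0.84 (SE 0.22, adjusted p = 0.201). The related subunit P4ha2 differed by 0.05 (SE 0.101).

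Ndrg1, a hypoxia-induced gene linked to growth arrest and differentiation, read 13.05, 12.98 and 13.13 on PBS arrays and 12.46, 12.94 and 12.61 on clodronate arrays. Clodronate replicate 2 was just below the lowest PBS array, and the others lay well below. The difference was -0.38 (SE 0.135; limma unadjusted p = 0.0218, adjusted p = 0.347). All 4 dimmer probe sets of Ndrg1 were separated by group as well, with differences of -0.39, -0.68, -0.75 and -0.72, the last with a limma adjusted p of 0.0584.

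Bnip3, a mitochondrial protein that promotes mitophagy in hypoxia, read 12.07, 12.23 and 12.26 on PBS arrays and 11.69, 12.11 and 11.84 on clodronate arrays. The groups overlapped through clodronate replicate 2 and PBS replicate 1, and the difference was -0.31 (SE 0.128; limma unadjusted p = 0.0426, adjusted p = 0.439). Adm, the vasodilator peptide adrenomedullin, read 10.45, 10.65 and 10.99 on PBS arrays and 10.25, 10.96 and 10.33 on clodronate arrays. Its groups overlapped, with a difference of -0.18 (SE 0.214), and its other probe set gave -0.28 (SE 0.16). Car9, a carbonic anhydrase of hypoxic tumor cells, differed by -0.17 (SE 0.132) at a signal below the array median.

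**Figure D3:**
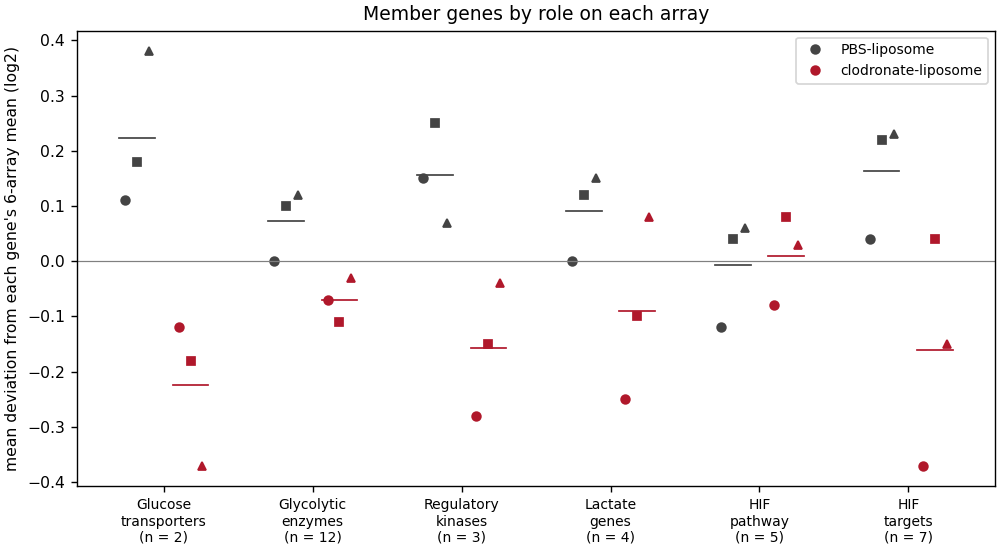
Mean deviation of the member genes from each gene's own mean over the 6 arrays (log2, y axis) for each role, with 1 point per array (circle, square, triangle for replicates 1, 2, 3) and a line at each group's mean. The HIF targets run from 0.04 to 0.23 on PBS and from -0.37 to 0.04 on clodronate arrays, while the HIF pathway genes run from -0.12 to 0.06 and from -0.08 to 0.08.

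By role, the median log2 difference was -0.31 over the 7 HIF targets and -0.02 over the 5 HIF pathway genes, and none of the 5 had an unadjusted p under 0.05. It was -0.10 over the 12 glycolytic enzymes, of which 2 had such a p, -0.18 over the 3 regulatory kinases (1) and -0.24 over the 4 lactate enzymes and carriers (2). Over all genes 5.49% were lower and 4.54% higher at that limit, and lists this short hold few genes to set against these shares. The order of the treated arrays was not the same for all roles. The HIF targets averaged -0.37, 0.04 and -0.15 on clodronate replicates 1, 2 and 3 around their mean of 6 arrays, and the glycolytic enzymes -0.07, -0.11 and -0.03. Replicate 2, the clodronate array whose hybridization control signal lay within the range of the PBS arrays, sat at the lower edge of the PBS arrays for HIF targets and was the lowest for glycolytic enzymes.

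Clodronate replicate 2 was below the PBS mean for 25 of 33 members, where 50.8% of all genes were. The 25 include all 10 members with an unadjusted p under 0.05, which this array helped to pick out. The members above that mean were Hif1a, Egln3, Vhl, P4ha2 and Adm of the HIF group (by 0.04 to 0.33). In glycolysis they were Pgk1, Pgam1 and Slc16a1 (by 0.02 to 0.06). On the log2 scale clodronate replicate 2 was below the PBS mean by 0.65 for Slc2a1, 0.43 for Ldha, 0.39 for Pfkfb3, 0.33 for Ankrd37 and 0.08 for Bnip3. These values also enter the differences by which these genes were picked out. With the hybridization control signal as a covariate, 6 members in place of 10 had an unadjusted p under 0.05, and Slc2a1 differed by -0.71 (SE 0.126, limma adjusted p = 0.198). What part the array controls or the lower leukocyte and macrophage signal had in these differences was not tested.

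Related genes (enzymes, carriers or HIF alpha subunits of the same kind) were then set against each other within each array. The log2 ratio of one to the other was taken in 9 pairs chosen after the data had been seen. This ratio is free of any shift common to both genes. With 3 arrays per group the smallest two-sided exact permutation p is 0.1, so no pair could pass the threshold. In 3 of 9 pairs the groups did not overlap. The first gene of each of these 3 was already lower without overlap by itself, so this count is no separate evidence. No share over other gene pairs was computed to set beside it. The log2 ratio of Slc2a1 to Slc2a3 was 2.18 ± 0.203 on PBS and 1.34 ± 0.375 on clodronate arrays (mean ± SD, n = 3 each, difference -0.84, exact permutation p = 0.1, adjusted over 9 pairs 0.3).

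The ratio of Ldha to Ldhb was 4.37 ± 0.15 on PBS and 3.75 ± 0.186 on clodronate arrays (difference -0.62), and that of P4ha1 to P4ha2 1.53 ± 0.198 and 1.06 ± 0.113 (difference -0.48), both with the same exact permutation p of 0.1 and adjusted p of 0.3. Differences of the other 6 ratios were -0.87 for Aldoc to Aldoa, -0.45 for Pfkfb3 to Pfkfb4, -0.25 for Slc16a3 to Slc16a1, -0.12 for Hif1a to Epas1, -0.05 for Egln1 to Egln3 and 0.01 for Hk1 to Hk2, with overlapping groups in each. Only differences in a ratio are read here, since the level of 1 probe set cannot be set against that of another.

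**Figure D4:**
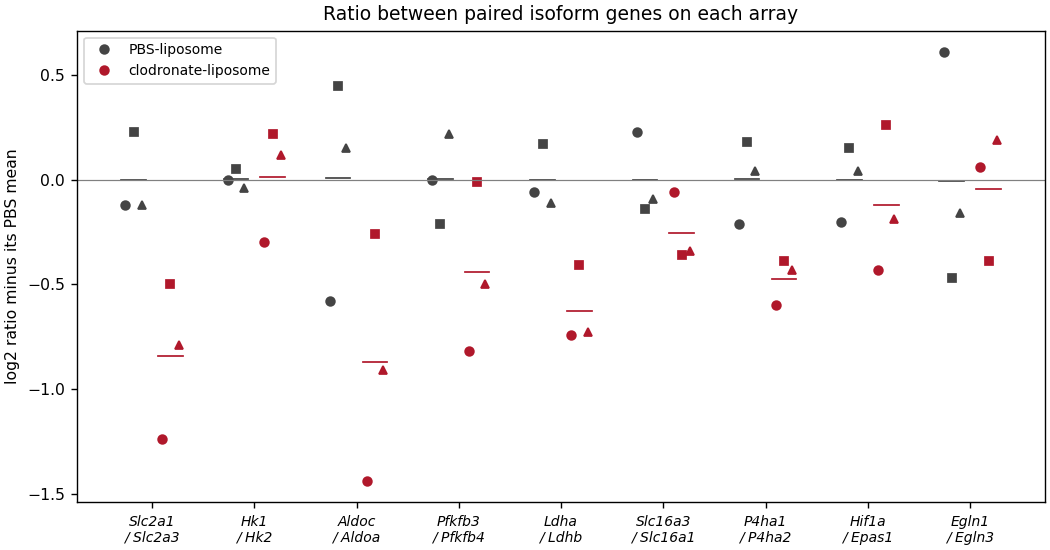
Log2 ratio of paired genes on each array (y axis, shown as the deviation from that pair's PBS mean), with circles, squares and triangles for replicates 1, 2 and 3 and a line at each group's mean. Clodronate arrays lie wholly below PBS arrays for Slc2a1 to Slc2a3, Ldha to Ldhb and P4ha1 to P4ha2, and the groups overlap in the other 6 pairs.

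Promoters are shown for some of the members with an unadjusted p under 0.05, since none passed the adjusted threshold. The motif searched is the short core of the hypoxia response element. RefSeq promoter windows of assembly GRCm38.p6, 300 bases each with 250 before and 50 after the transcription start, were available for 33 of the 37 listed genes (46 windows), and Slc2a3, Epas1, Bnip3l and Ndrg1 had none. The core was searched as ACGTG or GCGTG on both strands. At least 1 core was found in 29 of the 33 genes (87.9%), against 46.7% of all 27025 genes with a window, and in 37 of 46 windows (80.4%), against 43.8% of all 32851. It was found in 9 of 9 members with an unadjusted p under 0.05 and in 18 of 21 of the other measured members. The E-box CACGTG, which contains ACGTG on each strand, was found in 6 of the 33 genes (18.2%), against 8.09% of all genes. A match is a run of letters and was not shown here to be bound. The members were listed with known HIF targets among them, so their shares describe that choice of genes. For the 6 members of smallest p with a window, the 250 bases before the first listed start are given 5′ to 3′ on the gene's strand, with each core in capitals.
Slc2a1 (chr4:119108495-119108744, plus strand): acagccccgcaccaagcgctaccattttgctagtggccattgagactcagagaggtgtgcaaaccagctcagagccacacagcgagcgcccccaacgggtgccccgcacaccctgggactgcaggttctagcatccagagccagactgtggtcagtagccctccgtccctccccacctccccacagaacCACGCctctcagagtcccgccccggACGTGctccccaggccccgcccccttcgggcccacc
Ldha (chr7:46845554-46845803, plus strand): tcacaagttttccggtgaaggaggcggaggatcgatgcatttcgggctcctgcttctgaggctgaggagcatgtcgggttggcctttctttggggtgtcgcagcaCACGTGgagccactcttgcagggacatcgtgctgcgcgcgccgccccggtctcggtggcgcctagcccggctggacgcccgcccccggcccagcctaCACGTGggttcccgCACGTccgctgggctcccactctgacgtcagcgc
Pfkfb3 (chr2:11553930-11554179, minus strand): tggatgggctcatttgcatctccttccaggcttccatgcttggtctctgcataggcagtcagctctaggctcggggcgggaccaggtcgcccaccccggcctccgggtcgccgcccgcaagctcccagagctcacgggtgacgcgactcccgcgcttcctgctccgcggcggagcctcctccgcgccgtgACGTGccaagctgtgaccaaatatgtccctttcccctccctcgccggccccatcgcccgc
Aldoc (chr11:78322823-78323072, plus strand): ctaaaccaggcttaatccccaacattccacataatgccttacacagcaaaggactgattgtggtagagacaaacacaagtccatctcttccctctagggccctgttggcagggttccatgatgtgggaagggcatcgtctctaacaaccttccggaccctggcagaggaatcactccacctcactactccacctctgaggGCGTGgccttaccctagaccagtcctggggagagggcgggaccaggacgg
Ankrd37 (chr8:45999851-46000100, minus strand): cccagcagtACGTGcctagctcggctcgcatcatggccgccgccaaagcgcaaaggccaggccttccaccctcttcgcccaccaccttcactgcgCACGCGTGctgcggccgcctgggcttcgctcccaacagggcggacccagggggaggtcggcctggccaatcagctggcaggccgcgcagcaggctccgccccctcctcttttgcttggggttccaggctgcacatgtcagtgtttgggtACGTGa
Slc16a3 (chr11:120948817-120949066, plus strand): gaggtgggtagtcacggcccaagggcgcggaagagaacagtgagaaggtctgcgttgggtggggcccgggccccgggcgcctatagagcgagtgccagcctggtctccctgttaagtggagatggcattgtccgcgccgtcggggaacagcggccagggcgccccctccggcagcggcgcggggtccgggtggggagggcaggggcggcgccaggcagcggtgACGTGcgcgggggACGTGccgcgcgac

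The Slc2a1 stretch held 2 cores, that of Ldha 5 (4 of them in a pair of E-boxes, where the cores of both strands overlap), that of Ankrd37 4 and that of Slc16a3 2, while Pfkfb3 and Aldoc held 1 each. Counted over all their full windows instead, Ldha held 9 cores, Pfkfb3 5 and Aldoc 4 (2 windows each), Ankrd37 4, and Slc2a1 and Slc16a3 2 each. Members near 0 also held cores in their full windows, among them Hif1a with 3, Hk2 with 2, Pgk1 with 2 and Egln3 with 1. Tpi1, Eno2 and Vhl had none in theirs.

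Further genes of these pathways were taken from lists of other glycolysis and pyruvate genes (41 of 46 measured), other HIF pathway genes (17 of 17) and other HIF targets (34 of 36). None passed the threshold. At unadjusted p under 0.05, 5.49% of all genes were lower and 4.54% higher. In these lists, 1 glycolysis and pyruvate gene was lower and 1 higher, and no HIF pathway gene was called either way. Of the HIF targets, 4 were lower and 3 higher. Median log2 differences of the lists were, in this order, 0.03, -0.07 and -0.06. These further HIF targets lay on both sides.

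Bhlhe40, a transcriptional repressor induced by hypoxia, read 12.97, 13.16 and 13.16 on PBS and 11.74, 12.62 and 12.35 on clodronate arrays, with no overlap and the same order of treated arrays as Ankrd37 (-0.86, SE 0.209, limma adjusted p = 0.175). Ddit4, a stress-induced inhibitor of mTORC1, differed by -0.64 (SE 0.151, adjusted p = 0.17), and Tmem45a by -0.30 (SE 0.107). In the other direction, Edn1, the vasoconstrictor endothelin-1, read 12.37, 12.47 and 12.62 on PBS and 13.03, 12.98 and 12.82 on clodronate arrays, also without overlap (0.46, SE 0.11, limma adjusted p = 0.173), and the nuclear receptor Rora differed by 0.36 (SE 0.122).

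Of the glycolysis and pyruvate genes, Pgm2, a phosphoglucomutase family member, differed by -0.33 (SE 0.0912, limma adjusted p = 0.223) and Pdk4, a pyruvate dehydrogenase kinase induced in fasting, by 0.50 (SE 0.15, adjusted p = 0.258) at a dim signal. Those next in order of p were Pfkfb2 (0.19), Pdp1 (-0.20) and Txnip (0.20), a glucose-induced inhibitor of glucose uptake. The HIF pathway genes with the smallest p were Arnt2 (-0.29), Limd1 (-0.16), Egln2 (-0.15), Siah2 (-0.16) and Rbx1 (0.22), all with an unadjusted limma p above 0.1.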

How the data were processed

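RNA from 6 samples was labelled by a 3′ IVT kit for small inputs and hybridized to Affymetrix mouse arrays, 1 per sample. The authors deposited log2 signals made by robust multiarray averaging, in Chipster per the study's methods, and these were used as deposited. Array medians were 8.13. Background correction was not repeated, since the scanner files were not used here. Of 45101 probe sets, 64 controls were set aside and 45037 tested without a filter. The platform annotation gave 34945 of them 1 symbol. Precision is limited by the 3 arrays of each group.

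Groups came from the treatment label. Differences were computed by lmFit and eBayes of limma 3.58.1 under R 4.3.3, two-sided, on 4 residual and 3.9 prior degrees of freedom, with Benjamini-Hochberg adjustment over all tested probe sets and a threshold of 0.05. Ratios of gene pairs were compared by exact permutation (scipy 1.17.1). The steps were tested on simulated data. The members, the other lists, the markers and the rule for naming genes were chosen with earlier results of these data known. That rule gives array values for members with an unadjusted p under 0.05 and for Slc2a1, Hk2, Pfkfb3, Gapdh, Ldha, Hif1a, Epas1, Egln3, Bnip3, Adm and Ndrg1, and names up to 5 genes of each other list by smallest p. Beside values printed, other probe sets of a gene are given where the sign is opposite or the size differs over 2-fold, and some others are added. Alternatives covered left-out arrays, a replicate block, a signal filter, a trended and robust variance, other choices of probe set, a further quantile normalization, array weights and control signals as covariates.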

Additional observations from a re-analysis of the deposited data

How the results depend on the processing

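The count of members lower past the threshold, 0 in the fit as reported, was 1 (Slc2a1) with probe sets at or above the median signal, with the mean of all probe sets per gene, with adjustment over 1 probe set per gene and with array weights, and 2 (Slc2a1 and Ldha) with a trended and robust variance. It was 0 with each array left out, and no member was called higher under any setting. The count lower at unadjusted p under 0.05 was 6 with the hybridization control signal in the model and 8 to 11 with 1 array left out. The count higher at that limit was 1 with array weights and 0 to 1 with 1 array left out. The median log2 difference of the HIF members was -0.296 to -0.0291 with 1 array left out, the lowest without PBS-liposome replicate 1, and that of the glycolysis members -0.166 to -0.092. With the replicate block, 0 members passed (smallest adjusted p = 0.0687, Aldoc; Slc2a1 0.0882). Whether the replicate numbers pair the arrays is not settled by these data. Correlations of same-numbered deviations were small (0.0751, 0.0699 and 0.0361), but each array correlated best with its own number. Those of differently numbered arrays ran from -0.0578 to -0.00648. Over left-out arrays, the block, the signal filter, the trended variance, the probe set choices and quantile normalization, 22 of 33 members kept their direction. With array weights and the control signals as covariates included, 21 did, since Adm was 0.0908 with the hybridization control signal, and these 21 included the 10 with an unadjusted p under 0.05. With 1 array left out the log2 difference ranged from -0.18 to 0.0792 for Slc2a3, -0.161 to 0.0791 for Pfkm, -0.127 to 0.0498 for Pfkp, -0.233 to 0.0664 for Slc16a1, -0.157 to 0.0519 for Hif1a, -0.0128 to 0.151 for Epas1, -0.297 to 0.137 for Egln3 and -0.00526 to 0.0907 for P4ha2. The most variable probe set reversed Slc2a3 (0.444), Pfkp (0.162), Aldoa (0.0958), Pgk1 (0.0531) and Vhl (-0.264), and the mean of all probe sets reversed Slc2a3 (0.181), Pgk1 (0.0185) and Vhl (-0.0305). Among gene ratios, Hk1 to Hk2 ranged from -0.0976 to 0.166, Hif1a to Epas1 from -0.308 to 0.037 and Egln1 to Egln3 from -0.276 to 0.262 with 1 array left out, and Hk1 to Hk2 was -0.0727 and -0.0323 with the most variable and the mean probe set. Settings for the unadjusted counts and the gene ratios were added once results were known. The cause of these shifts was not tested.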
